A study of Mus musculus with 6 samples.

Results

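The 35 genes described here mark the neurons of particular brain regions. They were chosen by gene symbol: 6 genes of the striatum, 7 of the cerebral cortex, 3 of the hippocampus, 5 of the thalamus, 7 of the hypothalamus and 7 of the cerebellum. All 35 were found, each in 1 row, among the 36758 genes of the deposited table. Of these 35, 20 passed the filter on low values that the test between groups needs, and 15 did not. The question asked of them was whether the libraries held RNA of different brain regions.

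RNA of mouse brain was sequenced in 6 libraries, 3 from C57BL/6J mice given water as the vehicle and 3 from C57BL/6J mice given 0.12% trimethylamine N-oxide (TMAO) once a day. Both groups were treated over 16 weeks, and the series describes the mice as 6 months old. TMAO is a metabolite that the liver makes from trimethylamine released by gut bacteria. The labels assign the libraries to microglia and to brain, name no brain region, and use a protocol template that speaks of pooled RNA without saying what was pooled. They do not say whether each library came from its own animal. The p-values below therefore set the difference between the groups against the spread of these libraries only, and that spread may be technical.

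Neurons of each brain region switch on a characteristic set of transcription factors early in development and keep many of them, together with the transmitters and receptors of that region, through adult life. The transcription factors Tbr1, Neurod2 and Neurod6 belong to excitatory neurons of the cortex and hippocampus, whereas the principal neurons of the striatum are inhibitory and make enkephalin or substance P. Neurons of the hypothalamus release peptide hormones such as oxytocin and vasopressin. Levels of such genes in bulk tissue therefore depend on which region was dissected, and a smaller number of cells of a type cannot be told apart from less RNA per cell.

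Values are given in FPKM, fragments scaled to gene length and to the fragments of the library, in the order vehicle replicates 1, 2 and 3 and then TMAO replicates 1, 2 and 3 unless stated. Total FPKM per library ran from 305701 to 326977, and 27368 to 28032 genes were above 0. The 10 microglia markers summed to 267, 141 and 106 FPKM under vehicle and 112, 114 and 126 FPKM under TMAO, against 541, 1128 and 1219 FPKM and 1300, 1239 and 1136 FPKM for the 12 pan-neuronal markers. The neuronal sum exceeded the microglial sum in each library, although the labels name microglia as well as brain. Vehicle replicate 1 stood apart: across the 14206 genes tested (genes, not replicates), its Pearson r with the other 5 libraries was 0.804 to 0.896 on log2 values, while those 5 reached 0.959 to 0.986 among themselves. The differences of the tested members, and the counts of members whose groups do not overlap, are therefore given with and without it.

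**Figure D1:**
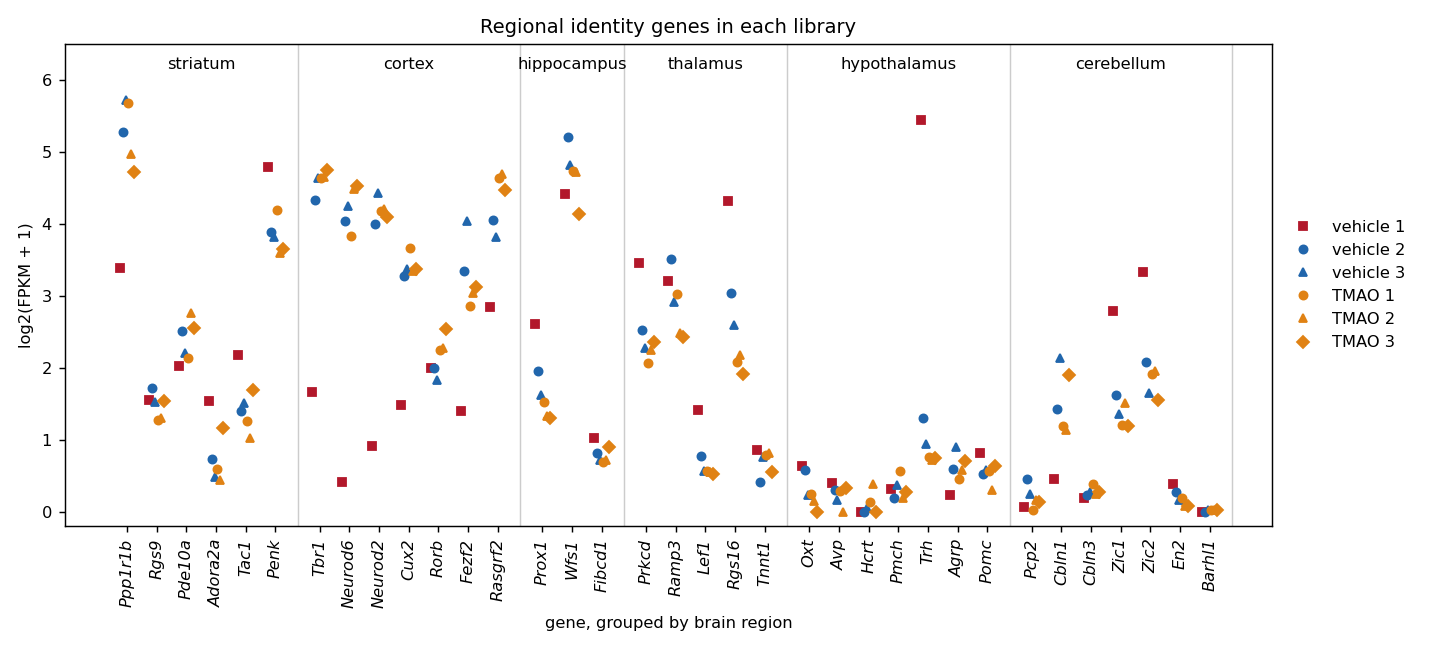
Level of each of the 35 members as log2(FPKM + 1) in the 6 libraries, grouped by brain region; 1 point is 1 library (red square, vehicle replicate 1; blue, the other vehicle libraries; orange, TMAO). Vehicle replicate 1 lies far below the others for Tbr1, Neurod6, Neurod2, Cux2 and Fezf2 and far above them for Trh, at 42.5 FPKM.

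The cortical genes separated vehicle replicate 1 from the other 5 libraries. In it, Neurod6 was 55.2 times lower than the mean of the others, Neurod2 19.5 times and Tbr1 10.7 times, whereas the pan-neuronal sum was 2.23 times lower. In the other direction the hypothalamic peptide gene Trh was 48.1 times higher. This library is a single sample, so no test of its difference was made.

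The promoters of the 3 cortical factors with the widest gap and of Trh are shown because these 4 genes moved farthest between libraries. They run from 250 bases before to 50 after the RefSeq start of the gene, 5′ to 3′ on the gene's own strand, in build GRCm38.p6. Capitals mark the E-box letters CAGATG or their reverse complement CATCTG, a form bound by factors of the NeuroD family.
Tbr1, chr2:61804203-61804502, plus strand: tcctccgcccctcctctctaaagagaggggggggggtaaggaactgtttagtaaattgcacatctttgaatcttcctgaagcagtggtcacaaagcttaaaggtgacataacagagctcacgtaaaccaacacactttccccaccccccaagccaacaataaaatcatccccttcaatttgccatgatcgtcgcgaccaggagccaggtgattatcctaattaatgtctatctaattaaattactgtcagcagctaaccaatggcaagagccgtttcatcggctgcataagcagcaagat
Neurod6, chr6:55681214-55681513, minus strand: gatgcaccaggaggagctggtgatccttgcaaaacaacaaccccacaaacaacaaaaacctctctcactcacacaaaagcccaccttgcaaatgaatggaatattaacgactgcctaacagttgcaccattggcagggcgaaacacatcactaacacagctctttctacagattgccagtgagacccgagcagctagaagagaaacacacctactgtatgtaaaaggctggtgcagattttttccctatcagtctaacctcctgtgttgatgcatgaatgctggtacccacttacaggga
Neurod2, chr11:98329596-98329895, minus strand: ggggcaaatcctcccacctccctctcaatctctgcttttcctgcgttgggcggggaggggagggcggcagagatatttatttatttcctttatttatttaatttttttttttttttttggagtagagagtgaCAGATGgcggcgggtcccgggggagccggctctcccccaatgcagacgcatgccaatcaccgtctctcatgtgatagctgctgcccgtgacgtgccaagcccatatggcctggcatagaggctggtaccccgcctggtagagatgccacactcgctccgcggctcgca
Trh, chr6:92244601-92244900, minus strand: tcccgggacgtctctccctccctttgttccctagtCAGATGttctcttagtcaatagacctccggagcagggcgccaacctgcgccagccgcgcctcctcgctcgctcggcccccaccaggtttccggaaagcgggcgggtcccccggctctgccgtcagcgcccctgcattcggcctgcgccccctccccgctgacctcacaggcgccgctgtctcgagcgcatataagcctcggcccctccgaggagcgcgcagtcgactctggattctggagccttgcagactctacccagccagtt

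The E-box letters occurred in the Neurod2 and Trh windows and not in those of Tbr1 and Neurod6. On both strands they were found in 17.2% of all 32851 promoters of that length, and in 14 of the 40 promoters held for 28 of the members. The T-box letters AGGTGTGA, a form bound by T-box factors such as TBR1, were in 1.28% of all promoters, and the cyclic AMP response element TGACGTCA in 1.79%. Neither was in any of the 40 member promoters. The windows of Tbr1, Neurod6, Neurod2 and Trh had 46.0%, 46.3%, 55.3% and 67.0% G and C, against a median of 52.7% over all promoters. Such matches describe letters only.

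Among the cortical members, Tbr1 encodes a T-box factor of deep-layer excitatory neurons and stood at 2.18, 19.2 and 23.9 FPKM under vehicle and at 23.9, 24.1 and 25.9 FPKM under TMAO. Neurod6, a helix-loop-helix factor of cortical and hippocampal excitatory neurons, had 0.326, 15.5 and 17.9 FPKM and 13.2, 21.4 and 22.1 FPKM. Its relative Neurod2 had 0.883, 15.0 and 20.6 FPKM and 17.1, 17.4 and 16.1 FPKM. For these 3 factors vehicle replicate 1 was low and the other 5 libraries lay within 1.68-fold of each other, so the groups overlapped. The upper-layer homeobox gene Cux2 showed the same order, at 1.78, 8.67 and 9.36 FPKM under vehicle and 11.7, 9.16 and 9.35 FPKM under TMAO. Fezf2, a zinc finger factor that specifies deep-layer projection neurons, had 1.63, 9.16 and 15.5 FPKM and 6.28, 7.24 and 7.68 FPKM. Without vehicle replicate 1, both remaining vehicle libraries lay above each TMAO library for Fezf2.

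Rasgrf2, an exchange factor for Ras proteins found in upper-layer neurons, had 6.19, 15.5 and 13.1 FPKM under vehicle and 23.9, 24.8 and 21.1 FPKM under TMAO. Rorb, a nuclear receptor of the layer that receives thalamic input, had 2.97, 3.002 and 2.54 FPKM and 3.76, 3.84 and 4.79 FPKM. For both genes the lowest TMAO library lay above the highest vehicle library. Rorb was the only cortical member for which vehicle replicate 1 was not the lowest library. Vehicle replicate 1 was the lowest of the 6 in 6 of the 7 cortical members, where it was the lowest in 35.8% of all tested genes. It lay over 2-fold below the next library, on the log2(FPKM + 1) scale, in 5 of the 7, against 4.43% of all tested genes. Divided by the pan-neuronal sum of its library, Neurod6 was still 25.0 times lower in vehicle replicate 1 than the mean of the others, Neurod2 8.76 times, Tbr1 4.83 times, Fezf2 2.54 times, Cux2 2.43 times and Rasgrf2 1.43 times. For Rorb this division turned the direction, from 1.21 times lower in vehicle replicate 1 to 1.84 times higher.

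The 13 other genes of cortical neurons, listed apart from the members, summed to 88.8 FPKM in vehicle replicate 1 and to 276 to 318 FPKM elsewhere. Among them Slc17a7, the vesicular glutamate transporter of cortical excitatory neurons, had 14.5 FPKM there and 151 to 185 FPKM in the other 5 libraries. Lamp5, a membrane protein of upper-layer neurons and some interneurons, had 2.97, 29.0 and 30.5 FPKM under vehicle and 63.1, 65.2 and 44.2 FPKM under TMAO, without overlap of the groups. Ccn2, a secreted matrix protein of deep cortical neurons that blood vessels also make, went the other way, at 39.2, 20.8 and 12.5 FPKM and 8.50, 12.5 and 12.2 FPKM. Of the 13, vehicle replicate 1 was the lowest library in 10 and the highest in 1.

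The striatal members did not move together. Ppp1r1b encodes a dopamine-regulated inhibitor of protein phosphatase that deep cortical neurons also make. It had 9.46, 37.6 and 51.7 FPKM under vehicle and 50.3, 30.3 and 25.4 FPKM under TMAO, and in vehicle replicate 1 was 4.13 times below the mean of the other 5 libraries. Penk, the enkephalin precursor, had 26.7, 13.8 and 13.1 FPKM and 17.2, 11.1 and 11.5 FPKM. Tac1, the substance P precursor, had 3.51, 1.65 and 1.85 FPKM and 1.39, 1.04 and 2.23 FPKM. Vehicle replicate 1 was thus low for Ppp1r1b and the highest library for both peptide precursors, and the groups overlapped for all 3. The adenosine receptor gene Adora2a, a marker of enkephalin neurons, was at 0.362 to 1.89 FPKM, with vehicle replicate 1 highest and TMAO replicate 3 next at 1.24 FPKM.

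Rgs9 and Pde10a had narrower ranges between libraries, of 0.46 and 0.74 on the log2(FPKM + 1) scale. Rgs9, a regulator of G protein signalling, had 1.93, 2.30 and 1.86 FPKM under vehicle and 1.41, 1.46 and 1.89 FPKM under TMAO. Pde10a, a cyclic nucleotide phosphodiesterase, had 3.05, 4.70 and 3.60 FPKM and 3.38, 5.79 and 4.87 FPKM. Their libraries overlapped between groups. Of the other striatal genes, Adcy5, Gng7 and Pde1b, which act in cyclic nucleotide and G protein signalling, were the most abundant, at 11.5 to 16.8, 11.1 to 17.6 and 10.8 to 23.8 FPKM. All 14 of these other genes together summed to 52.9 FPKM in vehicle replicate 1 and to 86.4 to 95.8 FPKM elsewhere. Vehicle replicate 1 was the lowest library in 6 of the 7 that were tested, against 35.8% of all tested genes. Rarb, Isl1 and Six3, under 1 FPKM in every library, went the other way. They had 0.917, 0.641 and 0.904 FPKM in vehicle replicate 1 and at most 0.445, 0.0582 and 0.0491 FPKM elsewhere. Summed, the 6 striatal members ran from 46.5 to 74.3 FPKM over the 6 libraries.

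Of the hippocampal members, Prox1, a homeobox factor of dentate granule cells, was lower in each TMAO library, at 5.11, 2.88 and 2.08 FPKM under vehicle and 1.87, 1.52 and 1.46 FPKM under TMAO. Wfs1, an endoplasmic reticulum protein abundant in hippocampal pyramidal neurons, had 20.4, 35.9 and 27.2 FPKM and 25.7, 25.3 and 16.5 FPKM. The groups overlapped for Wfs1 with all libraries and did not without vehicle replicate 1. Fibcd1, a receptor for acetylated molecules, was at 0.612 to 1.04 FPKM. Of the 13 other hippocampal genes, the synaptic organiser C1ql3 had 3.05 FPKM in vehicle replicate 1 and 11.2 to 20.8 FPKM elsewhere. The kainate receptor subunit Grik4 had 1.76 FPKM there and 4.23 to 5.53 FPKM elsewhere. Pdzd2, a PDZ domain protein, had 2.20, 3.74 and 3.27 FPKM under vehicle and 5.59, 6.92 and 6.84 FPKM under TMAO, without overlap of the groups. Of the 13, 4 were under 1 FPKM in every library.

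Among the thalamic members, Rgs16, a regulator of G protein signalling, had 18.9, 7.22 and 5.03 FPKM under vehicle and 3.21, 3.50 and 2.78 FPKM under TMAO. Each vehicle library was above each TMAO library. Prkcd, the delta isoform of protein kinase C, had 10.0, 4.76 and 3.83 FPKM and 3.19, 3.74 and 4.14 FPKM. Ramp3, which partners the calcitonin family of receptors, had 8.23, 10.4 and 6.54 FPKM and 7.14, 4.59 and 4.40 FPKM. The groups overlapped for Prkcd and Ramp3. Lef1, a transcription factor of Wnt signalling found in thalamic neurons and brain endothelium, had 1.67, 0.714 and 0.484 FPKM and 0.473, 0.470 and 0.432 FPKM, a small difference without overlap. Tnnt1, a troponin subunit, stayed at 0.330 to 0.804 FPKM with overlap. Of these 5 genes, 4 were highest in vehicle replicate 1, counting Lef1 and Tnnt1, which were under the filter. Among the tested thalamic members 2 of 3 were highest there, against 41.8% of all tested genes. Of the 3 thalamic members tested, 1 (Rgs16) lay over 2-fold above the next library there, as did 5.79% of all tested genes.

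The 10 other thalamic genes summed to 32.2 FPKM in vehicle replicate 1 and to 12.5 to 15.5 FPKM elsewhere. Amotl1, an angiomotin family protein, had 15.8 FPKM there and 2.78 to 7.57 FPKM elsewhere, and Plekhg1 had 5.39 and 2.12 to 3.61 FPKM. Slc17a6, the vesicular glutamate transporter of thalamic and other subcortical neurons, did not follow them in FPKM. It had 4.42 FPKM in vehicle replicate 1 and 1.18 to 5.49 FPKM elsewhere. Divided by the pan-neuronal sum, 541 FPKM in that library and 1128 to 1300 FPKM elsewhere, Slc17a6 was highest in vehicle replicate 1. Gbx2, a homeobox gene of thalamic neurons, was at 0.366 FPKM in vehicle replicate 1 and at 0 to 0.0731 FPKM elsewhere. Markers of other cells were raised in vehicle replicate 1 as well. Its 10 endothelial markers summed to 504 FPKM, against 235 and 170 FPKM in the other vehicle libraries and 152 to 177 FPKM under TMAO, and 9 of the 10 were highest there. The part of these cells in the levels of Rgs16, Lef1 and Prox1 was not tested.

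The hypothalamic members were near 0 apart from 1 gene. Trh, the precursor of thyrotropin-releasing hormone, had 42.5, 1.47 and 0.923 FPKM under vehicle and 0.687, 0.649 and 0.683 FPKM under TMAO, so that each vehicle library was above each TMAO library. Beside it, the hormone precursor genes Oxt (oxytocin) and Avp (vasopressin) reached at most 0.550 and 0.315 FPKM. Hcrt, the orexin precursor, and Pmch, the precursor of melanin-concentrating hormone, reached 0.309 and 0.471 FPKM. The feeding peptides Agrp and Pomc were at 0.170 to 0.871 and 0.231 to 0.765 FPKM. These 6 genes stayed under 1 FPKM in all 6 libraries, including the library with high Trh, and Oxt, Avp and Hcrt were listed at 0 in at least 1 library. Trh is also made outside the hypothalamus.

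The 15 other hypothalamic genes summed to 17.0 FPKM in vehicle replicate 1 and to 1.68 to 4.42 FPKM elsewhere. Baiap3, a protein of dense-core vesicle transport, had 7.86 FPKM there and 0.380 to 0.959 FPKM in the other libraries. The peptide gene Gal had 2.94 FPKM and 0.101 to 0.395 FPKM. Crh, the precursor of corticotropin-releasing hormone, which cortical interneurons also make, did not follow them in FPKM. It had 1.99 FPKM in vehicle replicate 1 and 0.479 to 2.25 FPKM elsewhere. Divided by the pan-neuronal sum, Crh was highest in vehicle replicate 1. Among the transcription factors of the list, Nkx2-1 and Fezf1 had 0.554 and 0.321 FPKM in vehicle replicate 1 and at most 0.163 and 0.0446 FPKM elsewhere. The other 5 factors, Sim1, Otp, Rax, Six6 and Nr5a1, stayed under 0.05 FPKM in all 6 libraries.

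Of the 7 cerebellar members, 3 passed the filter, the zinc finger genes Zic1 and Zic2 and the synaptic organiser Cbln1. Zic1 had 5.88, 2.07 and 1.56 FPKM under vehicle and 1.30, 1.85 and 1.28 FPKM under TMAO, and Zic2 had 9.04, 3.21 and 2.14 FPKM and 2.78, 2.86 and 1.94 FPKM. Vehicle replicate 1 was highest for both, 3.65 and 3.50 times the mean of the other 5 libraries, and over 2-fold above the next library on the log2(FPKM + 1) scale. Cbln1, which cerebellar granule cells secrete, was lowest there, at 0.373, 1.70 and 3.38 FPKM under vehicle and 1.27, 1.19 and 2.73 FPKM under TMAO. The Purkinje cell gene Pcp2, the cerebellin gene Cbln3 and the homeobox genes En2 and Barhl1 stayed at or below 0.364, 0.300, 0.303 and 0.0188 FPKM. The 14 other cerebellar genes summed to 13.2 FPKM in vehicle replicate 1 and to 14.8 to 17.1 FPKM elsewhere. The most abundant were the G protein subunit gene Gng13 at 2.73 to 5.52 FPKM, the helix-loop-helix factor gene Neurod1 at 0.788 FPKM in vehicle replicate 1 and 2.90 to 5.05 FPKM elsewhere, and Car8 at 2.18 to 3.37 FPKM. Of the 14, 9 were under 1 FPKM in every library, among them Gabra6, a receptor subunit of cerebellar granule cells, which was listed at 0 in all 6.

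Zic1 and Zic2 are also transcribed in the meninges. The 8 meningeal fibroblast markers summed to 191 FPKM in vehicle replicate 1, to 26.0 and 11.9 FPKM in the other vehicle libraries and to 7.19 to 15.8 FPKM under TMAO. Of the 5 of them that were tested, 4 were highest in vehicle replicate 1. Their part in the levels of Zic1 and Zic2 was not tested.

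Summed by region, the cortical members made up 8.45% of the member total in vehicle replicate 1 and 39.0%, 44.3%, 44.3%, 52.2% and 55.2% in the other libraries. The hypothalamic members made up 23.6% in that library, nearly all of it Trh, and 0.931% to 1.49% elsewhere. The thalamic members made up 21.0%, against 6.30% to 10.6% elsewhere. Between the other 5 libraries the region sums differed less: the highest was 1.26 times the lowest for cortex, 1.32 for cerebellum, 1.57 for striatum, 1.71 for hypothalamus, 1.92 for thalamus and 2.10 for hippocampus. For the pan-neuronal sum the same ratio was 1.15.

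**Figure D2:**
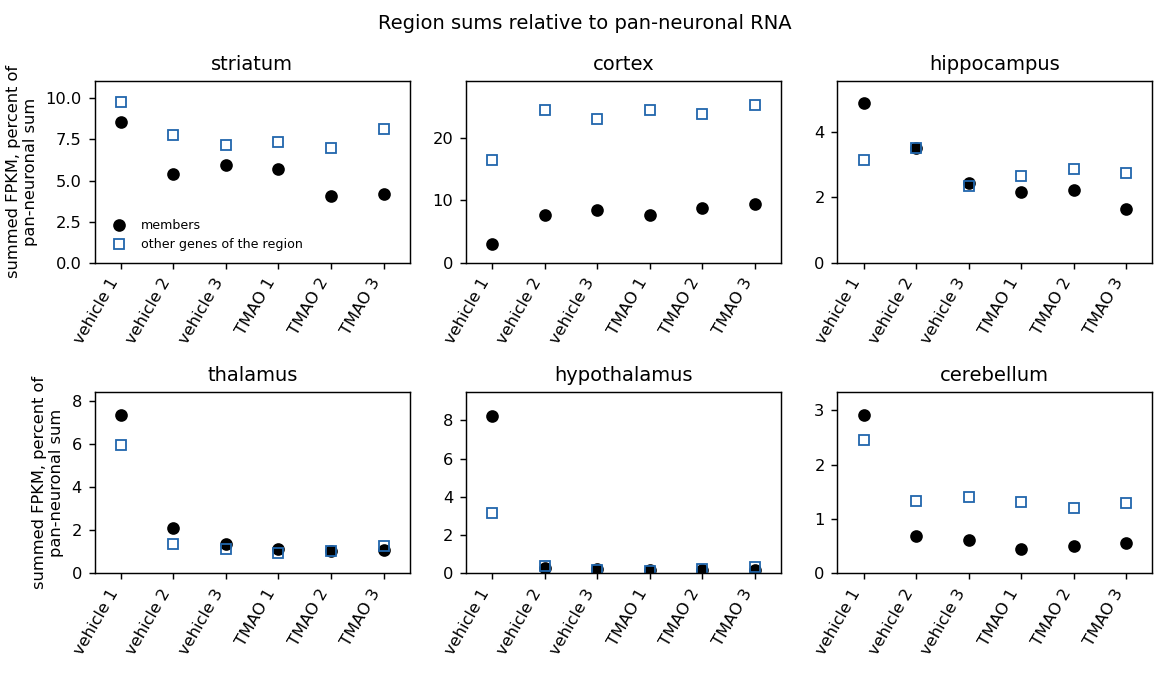
Summed FPKM of the members of each region (black) and of the other listed genes of that region (blue) as a percentage of the pan-neuronal sum, 1 point per library. The cortical members were at 2.95% in vehicle replicate 1 and at 7.63% to 9.42% elsewhere. The striatal, hippocampal, thalamic, hypothalamic and cerebellar members were highest in vehicle replicate 1, where the pan-neuronal sum was lowest.

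Relative to the pan-neuronal sum, the other listed genes had the same order as the members for 5 of the 6 regions, in that vehicle replicate 1 was the lowest library for cortex and the highest for striatum, thalamus, hypothalamus and cerebellum. For hippocampus vehicle replicate 1 was the highest library for the members, at 4.90% of the pan-neuronal sum, and the second for the other genes, at 3.15%, below vehicle replicate 2 at 3.52%. The direction turned without this division for striatum, where vehicle replicate 1 had the lowest sum, at 46.5 FPKM against 47.2 to 74.3 FPKM for the members and also for the other genes. It turned as well for the other genes of the cerebellum, lowest there at 13.2 FPKM. The other genes of the hippocampus were also lowest there without the division, at 17.0 FPKM against 28.8 to 39.7 FPKM. Summed FPKM of the thalamic, hypothalamic and cerebellar members was highest in vehicle replicate 1 either way. The thalamic members stood at 7.33% in vehicle replicate 1 and at 1.05% to 2.08% elsewhere, 5.46 times the mean of the others. The percentage for the cerebellar members was 5.17 times and that of the hypothalamic members 38.0 times the mean of the others. Single genes carried both sums. Zic1 and Zic2, at 5.88 and 9.04 FPKM, made up most of the 15.8 FPKM of the cerebellar members in vehicle replicate 1. Cbln1 was lowest in that library, at 0.373 FPKM, and the other 4 cerebellar members were under 1 FPKM in every library. Trh made up nearly all of the hypothalamic sum there.

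Over all 6 libraries, 17 of the 20 tested members varied by over 2-fold between the highest and the lowest library on the log2(FPKM + 1) scale, against 27.7% of all tested genes. Without vehicle replicate 1 the count was 5 of 20, against 5.93% of all tested genes. These 5 were Fezf2, Rgs16, Ramp3, Wfs1 and Cbln1, with ranges of 1.18, 1.12, 1.08, 1.07 and 1.002 on that scale. The median range of the 20 members was 1.63 over 6 libraries and 0.66 without vehicle replicate 1, where the median over all tested genes was 0.64 and 0.35. Members of the cortex had a median range of 2.65 and 0.70.

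**Figure D3:**
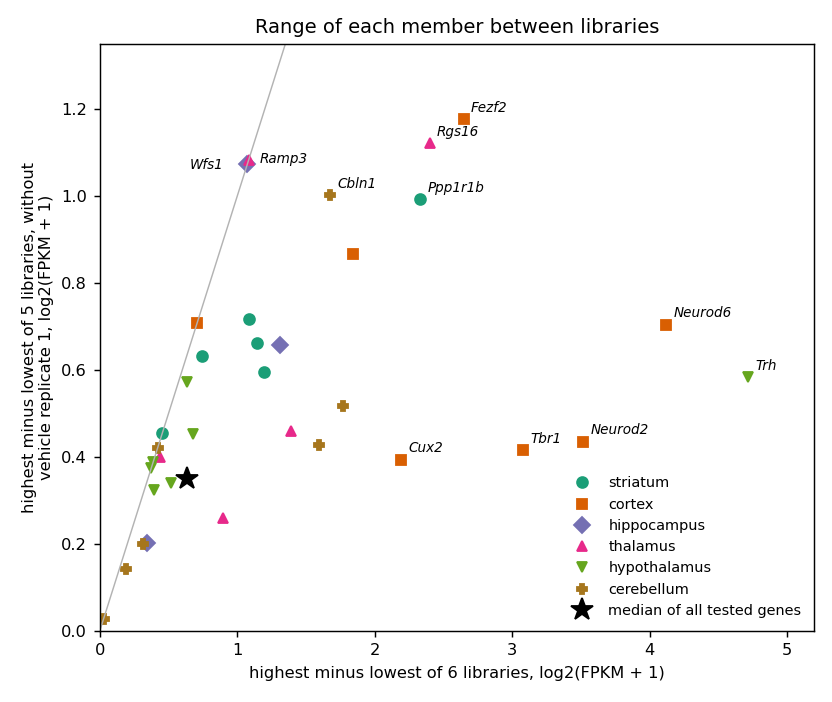
Highest minus lowest library for each member on the log2(FPKM + 1) scale, over 6 libraries (horizontal axis) and without vehicle replicate 1 (vertical axis); the grey line marks equal ranges and the star the median of all tested genes, at 0.64 and 0.35. Trh and Neurod6 had ranges of 4.72 and 4.12 over 6 libraries and 0.58 and 0.70 without vehicle replicate 1.

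The comparison of TMAO with vehicle asked which of these genes differed between the groups. No member passed. Rasgrf2 and Rorb had higher values and Rgs16 and Prox1 lower values in each TMAO library. By limma on log2(FPKM + 1), 0 of the 20 tested members passed an adjusted p of 0.05, as did 0% of all tested genes. At an unadjusted p under 0.05 there were 2 higher members (Rasgrf2 and Rorb), against 4.84% of all tested genes, and 3 lower (Rgs16, Prox1 and Ramp3), against 7.22%. The groups did not overlap, with TMAO higher, in 2 of the 20 tested members and in 12.1% of all tested genes, and with TMAO lower in 2 of the 20 and in 17.5%.

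The gene Rasgrf2 spans 91880400 to 92131656 of chromosome 13, minus strand, by its ID in a GRCm38 annotation. Its mean was 11.6 ± 4.86 FPKM (SD, n = 3) under vehicle and 23.3 ± 1.93 FPKM (SD, n = 3) under TMAO, a log2 difference of 1.03 (SE 0.316) with an adjusted p of 0.404 by limma. Without vehicle replicate 1 the difference was 0.66 (SE 0.108), with an adjusted p of 0.118. Rorb had 2.84 ± 0.258 and 4.13 ± 0.572 FPKM, a log2 difference of 0.41, and 0.44 without vehicle replicate 1. Fezf2, in contrast, had a log2 difference of 0.082 with all libraries and -0.68 without vehicle replicate 1 (adjusted p of 0.946 and 0.203 by limma). Neurod6, Tbr1, Neurod2 and Cux2 had differences of 1.38, 1.13, 1.04 and 0.75, and of 0.14, 0.19, -0.057 and 0.14 without vehicle replicate 1. The median over the 7 cortical members was 1.03 and 0.14, where the median over all tested genes was -0.027 and -0.022.

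The gene Rgs16 spans 153740349 to 153745468 of chromosome 1, plus strand. Its mean was 10.4 ± 7.48 FPKM (SD, n = 3) under vehicle and 3.16 ± 0.366 FPKM (SD, n = 3) under TMAO, a log2 difference of -1.26 (SE 0.430) with an adjusted p of 0.404 by limma. Without vehicle replicate 1 the difference was -0.76 (SE 0.155), with an adjusted p of 0.159. Prox1 went from 3.35 ± 1.57 to 1.62 ± 0.223 FPKM, a log2 difference of -0.68, and -0.40 without that library. For Ramp3 the difference was -0.57 in both. Prkcd, Zic1 and Zic2 had differences of -0.53, -0.62 and -0.54, and of -0.17, -0.19 and -0.054 without vehicle replicate 1. Among the vehicle libraries the endothelial and meningeal marker sums were, like Rgs16 and Prox1, highest in replicate 1 and lowest in replicate 3, although their groups overlapped. Other marker lists had sums that did not overlap between the groups, as for Rgs16 and Prox1. The ependymal markers summed to 6.52, 3.90 and 3.18 FPKM under vehicle and to 2.30 to 3.11 FPKM under TMAO. For the olfactory bulb markers the sums were 4.57, 2.24 and 1.72 FPKM and 1.54 to 1.66 FPKM. The neutrophil markers summed to 116, 55.9 and 14.0 FPKM under vehicle and 4.27 to 7.74 FPKM under TMAO, the erythroid markers to 601, 267 and 196 FPKM and to 80.7 to 110.0 FPKM, and the oligodendrocyte markers to 1052, 905 and 835 FPKM and to 439 to 699 FPKM. The part of these cells in the differences of Rgs16 and Prox1 was not tested.

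**Figure D4:**
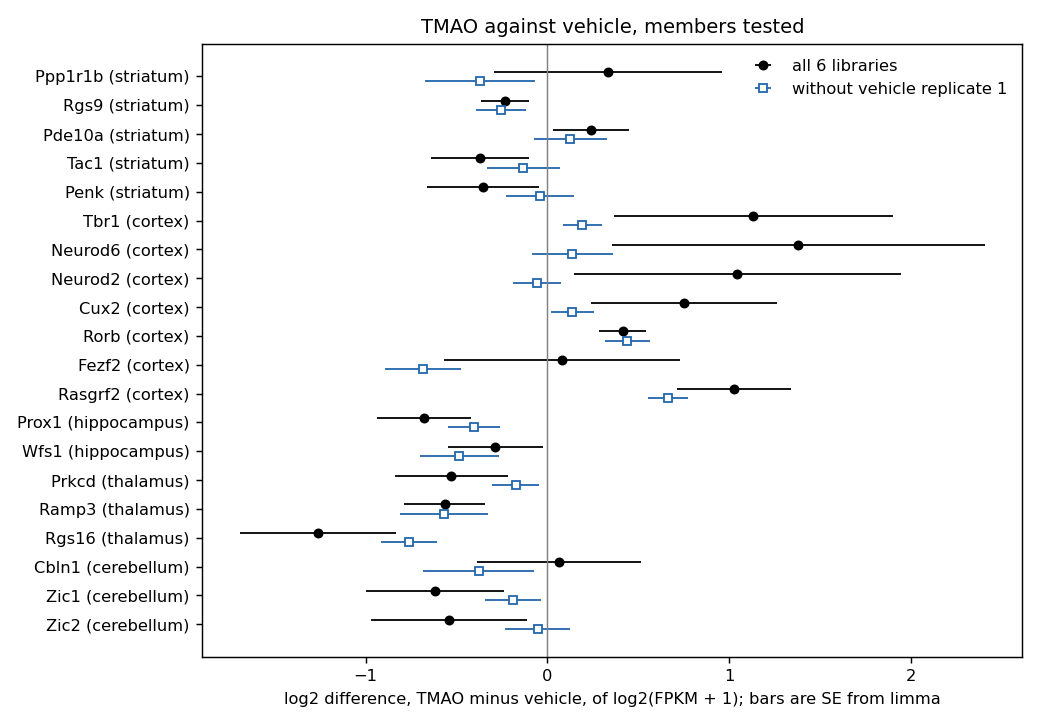
Difference of mean log2(FPKM + 1), TMAO minus vehicle, for the 20 tested members with all 6 libraries (black) and without vehicle replicate 1 (blue); bars are standard errors from limma. Rasgrf2 and Rorb stay above 0 and Rgs16, Ramp3 and Prox1 below 0 in both fits, while Tbr1, Neurod6 and Neurod2 move to near 0 without that library.

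Ppp1r1b had a log2 difference of 0.33, and -0.37 without vehicle replicate 1. For Penk the values were -0.35 and -0.041, for Tac1 -0.37 and -0.13, for Rgs9 -0.23 and -0.26 and for Pde10a 0.24 and 0.13. Wfs1 had -0.29 and -0.48, and Cbln1 0.064 and -0.38. The adjusted p by limma was between 0.418 and 0.763 for the 5 tested striatal members and 0.539 for Wfs1. Without vehicle replicate 1 the smallest adjusted p of any member was 0.118, and 0 of 20 members passed, as did 0% of all genes. At an unadjusted p under 0.05 there were then 2 higher members, against 6.98% of all genes, and 3 lower, against 10.2%. The groups of 2 and 3 libraries did not overlap in 2 members with TMAO higher, against 15.6% of all genes, and in 4 with TMAO lower (Fezf2, Prox1, Wfs1 and Rgs16), against 21.7%.

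The 15 members under the filter were compared by an exact permutation test, which cannot give a p under 0.1 with 3 libraries against 3. The groups did not overlap for 3 of them. Trh and Lef1 were lower in TMAO, against 5.62% of the 20572 genes under the filter with a value above 0, and 1 was higher, against 4.65%. This gene, Barhl1, at most 0.0188 FPKM, was listed at 0 in vehicle replicates 1 and 2, at 0.0113 FPKM in vehicle replicate 3 and at 0.0129 FPKM or more in TMAO. Each had an exact two-sided p of 0.1, and 0.5 after Benjamini-Hochberg adjustment over the 15. Trh differed by -1.82 on the log2(FPKM + 1) scale, and by -0.38 without vehicle replicate 1. Without that library 1 of the 15 had groups without overlap and higher values in TMAO (Barhl1), against 7.03% of the genes under the filter, and 3 had lower values (Trh, Lef1 and Pcp2), against 9.28%. The Trh gene spans 92242061 to 92244650 of chromosome 6, minus strand.

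The authors' deposited table marked 6 of the 35 members as changed. In the authors' deposited table Rasgrf2 was the 1 member marked as higher, at a log2 fold of 1.002 (q = 0.158), where 1.39% of genes with a value above 0 were marked so. Marked as lower in the authors' deposited table were 5 members, against 5.35% of genes: Trh with a log2 fold of -4.47, Rgs16 with -1.72, Zic1 with -1.10, Lef1 with -1.06 and Prox1 with -1.05. Only Rgs16 among these 6 had a q under 0.05 in the authors' deposited table, at 0.0473. Vehicle replicate 1 was the highest library for each of these 5 lower genes, and without it the log2(FPKM + 1) differences were -0.38 for Trh, -0.76 for Rgs16, -0.19 for Zic1, -0.13 for Lef1 and -0.40 for Prox1.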

How the data were processed

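The submitters' processing notes list cutadapt 1.9, a read trimmer, and mm9 as the mouse build. Aligner, quantifier and annotation: not given in the sources used here. The authors deposited FPKM per gene for each library, per the file headers, with a ratio (fold) of TMAO over vehicle, its log2, and p-values and q-values, whose test was not given in the sources used here. The deposited gene IDs were matched to GENCODE M21 (GRCm38) for coordinates, and promoters were read from RefSeq, build GRCm38.p6.

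Libraries were matched to columns through the library names in the labels, and 0 value columns were left unmatched. Read counts were not used: low FPKM of 20165 genes with 1 transcript, multiplied by transcript length, lay within 2% of a whole step in 15.4% to 18.2% of values, so whole fragments were not recovered. Precision therefore rests on the spread between libraries.

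On the log2(FPKM + 1) scale, limma 3.58.1 (R 4.3.3; eBayes, trend and robust options on) compared the groups, two-sided, for the 14206 genes that reached 1 FPKM in 3 or more libraries. P-values were adjusted over all of these by the Benjamini-Hochberg method, with a threshold of 0.05. Fits without a library used the same genes. The gene test was tested on simulated data. Region sums, ranges and comparisons of vehicle replicate 1 with the other libraries are descriptions without a test. The members, the region lists and the marker lists were chosen with earlier results of these data known. All 35 members are accounted for. Of the other genes of a region, the 3 with the highest mean could be named. Gbx2, Gabra6, Rarb, Isl1, Six3 and the 7 hypothalamic transcription factors were added after their values were seen. Alternatives covered the pseudocount, the filter, normalization, the variance model, a replicate block, array weights and leaving out each library. Figures were drawn with matplotlib 3.10.9.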

Additional observations from a re-analysis of the deposited data

How the results depend on the processing

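No gene and no member passed the adjusted threshold of 0.05 under any alternative fit. Without array weights 1712 genes and 5 members had an unadjusted p under 0.05, and with them 1074 and 3, in a fit whose weights stopped short of convergence. When each library was left out in turn these counts ran from 528 genes (without TMAO replicate 3) to 3365 (without vehicle replicate 3) and from 1 member (without TMAO replicate 2 or 3) to 5. Outside those fits, 3 members changed sign: with array weights Ppp1r1b was at -0.37, Fezf2 at -0.62 and Cbln1 at -0.45, and under quantile normalization Cbln1 was at -0.033 (0.064 as reported). Leaving out each library moved Ppp1r1b from -0.37 to 0.80, Neurod2 from -0.057 to 1.70, Fezf2 from -0.68 to 0.64 and Cbln1 from -0.38 to 0.46. The lowest value of each came from the fit without vehicle replicate 1. Why that library differs was not tested. The other 16 tested members kept their direction in all fits.

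Of the 20 tested members, 17 varied over 2-fold between libraries, against 27.7% of all tested genes. At 3-fold, where fewer can pass by construction, 11 did, against 10.7% of all tested genes. Leaving out a library gave 5 to 17 members over 2-fold, the lowest without vehicle replicate 1, against 5.93% of all tested genes. For the other libraries left out the count was 15 to 17, against 25.5% to 27.0% of all tested genes. Of the 15 members under the filter, 3 had groups without overlap with all 6 libraries, where 4.65% of all genes under the filter were higher and 5.62% lower. Leaving out a library gave 3 to 6 (6 without vehicle replicate 3), where fewer libraries make overlap rarer for every gene. Without vehicle replicate 1 there were 1 higher and 3 lower, against 7.03% and 9.28% of all genes under the filter. For the other libraries left out that share is not given here, so their counts cannot be set against it. The log2 ratio of summed FPKM, TMAO over vehicle, moved from -0.067 to -0.52 for striatum, from -0.37 to -0.85 for hippocampus, from -0.99 to -1.72 for thalamus and from -0.76 to -1.48 for cerebellum when divided by the pan-neuronal sum, which is lowest in vehicle replicate 1. Leaving out each library gave -3.41 to -0.46 for hypothalamus (-2.91 as reported) and -0.94 to -0.32 for cerebellum, both nearest to 0 without vehicle replicate 1, and 0.15 to 1.04 for cortex (0.62 as reported), the lowest again without vehicle replicate 1. Divided by the pan-neuronal sum and without vehicle replicate 1, an alternative chosen after seeing the data, hypothalamus was at -0.52.

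Replicate numbers are shared between the groups, and the main fit did not pair the libraries by them. Deviations of same-numbered libraries correlated across genes at -0.216, -0.0636 and -0.0153, and those of differently numbered libraries at -0.266 to 0.244. With so few libraries per group these correlations cannot decide whether the numbers mark pairs. With a replicate block 0 genes and 0 members passed, and 1259 genes and 4 members had an unadjusted p under 0.05.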

Other observations

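Marker sums of midbrain and hindbrain, olfactory bulb and choroid plexus were each under 5 FPKM. The 12 midbrain and hindbrain genes summed to 2.43 FPKM in vehicle replicate 1 and to 1.26 to 2.22 FPKM elsewhere, the 6 olfactory bulb genes to 4.57 and to 1.54 to 2.24 FPKM, and the 8 choroid plexus genes to 2.68 and to 1.06 to 2.54 FPKM. Nr4a2, a nuclear receptor of deep cortical neurons that neuronal activity also induces, was at 11.9 FPKM in TMAO replicate 3 and at 0.987 to 2.26 FPKM in the other 5 libraries; it was chosen after its values were seen.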
